A study of Mus musculus with 12 samples.

Results

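The data are RNA sequencing libraries from the medial prefrontal cortex of wild-type female mice, and the question is how gene expression differed after repeated stress. Of the 12 libraries of the series, 6 belong to this comparison by their labelled genotype and treatment: 3 from mice given chronic stress and 3 from mice given none. All mice of both groups were wild-type C57BL/6J females bought from a supplier, aged 8 to 12 weeks, and no transgene or deletion is labelled. Stress meant a forced swim in a water cylinder or a tail suspension, 1 test a day for 5 days, each lasting 5 minutes; which of the 2 tests a given mouse received is not labelled, nor is the interval between the last session and dissection. The other 6 libraries come from mice lacking Cacna1g, the gene of the T-type calcium channel Cav3.1, in the same 2 conditions, and they enter here mainly through the estimate of spread. The labels do not say that the 3 libraries of a group are 3 animals, so the tests measure the spread between libraries, which may in part be technical.

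The medial prefrontal cortex regulates the response to stress and is itself a target of stress hormones. Glucocorticoids bind receptors that switch on a known set of target genes, while neuronal firing induces the immediate early genes, which encode transcription factors, feedback regulators and synaptic proteins. The region holds layered glutamatergic projection neurons, several classes of GABAergic interneurons, glia and vessels, and it lies close to the olfactory bulb and under the meninges. In whole tissue, fewer cells of a type and less RNA per cell cannot be told apart.

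The 3 unstressed libraries were not alike, and the counts of called genes below are therefore also given for those that hold against library 3. CPM are counts scaled to library size. Summed levels of 9 genes of olfactory bulb projection neurons, 8 of them tested, were 812 and 888 CPM in unstressed libraries 1 and 2. They were 201 CPM in unstressed library 3 and 183, 116 and 90.7 CPM in the stressed libraries. The whole olfactory bulb list of 45 genes, 43 of them tested, summed to 5702 and 5502 CPM in unstressed libraries 1 and 2. It summed to 2303 CPM in library 3 and to 2612, 2238 and 2448 CPM after stress. The whole list thus placed library 3 among the stressed libraries. Its local neuron genes stood at 865 CPM in library 3 and at 1072, 645 and 516 CPM after stress, and its genes of the olfactory nerve and ensheathing glia at 1237 CPM in library 3 and at 1357, 1477 and 1842 CPM. Cdhr1, a cadherin of mitral and tufted cells, stood at 423, 427 and 48.9 CPM in unstressed libraries 1, 2 and 3 and at 52.4, 16.9 and 7.61 CPM in stressed libraries 1, 2 and 3. The 25 meningeal and fibroblast genes summed to 755 and 830 CPM in unstressed libraries 1 and 2, to 467 CPM in library 3 and to between 270 and 350 CPM after stress. In a principal component analysis of the 6 libraries the first component held 68.2% of the variance, with unstressed libraries 1 and 2 at -49.6 and -48.8, library 3 at 6.76 and the stressed libraries between 20.1 and 40.1. Markers of cortical tissue were present in all 6 libraries, with 10 genes summing to 5331, 6034 and 8322 CPM in the unstressed and to between 7518 and 8393 CPM in the stressed libraries. Library totals ran from 24269178 to 31082240 estimated counts.

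The table lists 24411 gene symbols. After genes with low counts were left out, 15199 were tested, and 3322 of these (21.9%) passed an adjusted p of 0.05 in edgeR's quasi-likelihood test. Stress went with higher levels of 1476 genes (9.71%) and lower levels of 1846 (12.1%). The 1476 higher genes had a median log2 fold change of 0.37, and the stressed mean exceeded library 3 by a median of 0.25 and libraries 1 and 2 by 0.43. The 1846 lower genes had a median of -0.67, with -0.35 against library 3 and -0.79 against libraries 1 and 2. A gene is said here to hold against library 3 when all 3 stressed libraries lie beyond that library in the direction of the fold change. This was so for 1436 of the 1476 higher genes (97.3%) and for 1511 of the 1846 lower ones (81.9%), in all 2947 genes or 19.4% of those tested. Called or not, 53.2% of all genes tested lay beyond library 3 in the direction of their fold change. Library 3 is itself among the controls of the test and of the fold change. Whether a called gene holds is therefore not independent of the call, here and in the lists below. In 5560 of the 15199 genes (36.6%) the 2 groups did not overlap. Over all genes tested, the 3 stressed libraries all lay above library 3 in 32.1% and below it in 30.5%.

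How many genes passed depended on single libraries. Without unstressed library 2 or without stressed library 2, edgeR called 0 genes, with 3895 and 4429 at an unadjusted p under 0.05. Against unstressed library 3 alone it also called 0, with 1932 at an unadjusted p under 0.05 and a smallest adjusted p of 0.0611. Without library 3 the count was 5635, and with the 6 wild-type libraries alone it was 1, the gene Myl4. So "rose" and "fell" below refer to the test against all 3 unstressed libraries, and the values against library 3 are levels with no test of their own. Of the 3322 genes called, 46.5% had a fold change of the same sign in the mice lacking Cacna1g, against 46.2% of all genes tested.

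**Figure D1:**
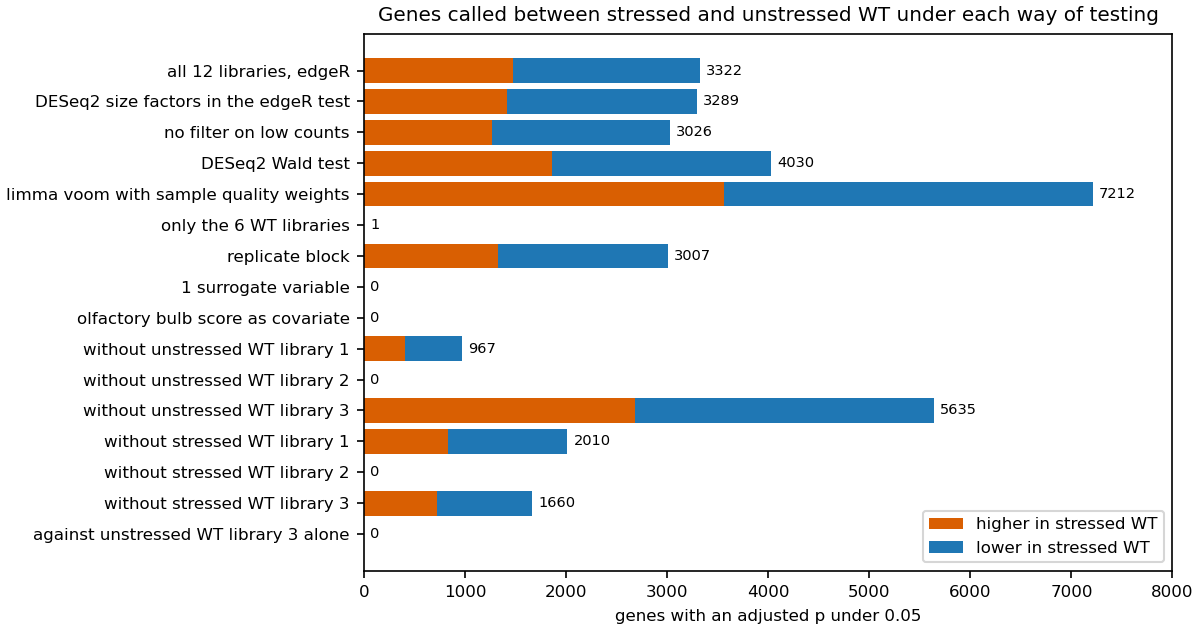
Number of genes with an adjusted p under 0.05 between stressed and unstressed wild-type libraries (horizontal axis) under each way of testing, split into genes higher (orange) and lower (blue) after stress. The count is 3322 with all 12 libraries in edgeR and 0 once unstressed library 2 or stressed library 2 is left out.

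Among genes of at least moderate level, those with the widest gap between the groups included several with a narrow spread. Myl4 encodes a myosin light chain. It lies on chromosome 11 (mm10, 104550663 to 104595753, plus strand). Its level was 15.0, 15.1 and 16.7 CPM in the unstressed libraries and 37.8, 39.6 and 35.6 CPM in the stressed ones. The groups were far apart, with library 3 next to libraries 1 and 2, and the log2 fold change was 1.27 ± 0.18 (SE, adjusted p = 0.0103 in edgeR). Pappa2, a protease that cleaves insulin-like growth factor binding proteins, lies on chromosome 1 (158711727 to 158980490, minus strand). It stood at 0.619, 1.87 and 1.13 CPM without and 4.30, 7.71 and 6.55 CPM with stress. All 3 stressed libraries exceeded library 3, and the rise of 2.34 ± 0.45 was as large against library 3 (2.34) as against libraries 1 and 2 (2.38). Lynx1, an anchored modulator of nicotinic acetylcholine receptors, rose from 217, 239 and 291 CPM to 436, 445 and 502 CPM. Library 3 was the highest of the unstressed libraries but lay well below the lowest stressed one, and the log2 fold change was 0.89 ± 0.12.

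Galnt9, an enzyme that starts O-linked glycosylation, showed 55.8, 64.5 and 97.1 CPM without stress. After stress its 3 values were nearly equal, at 152, 156 and 152 CPM. The stressed excess over library 3 was 0.66 and over libraries 1 and 2 it was 1.35 on the log2 scale. Acyp1, an acylphosphatase, rose by a similar amount against both parts of the group, 0.80 against library 3 and 0.69 against libraries 1 and 2. Scn4b, Sebox, Serinc2, Mal, Pvalb, Mog and Pdlim2 completed the 12 higher genes. These were picked among genes whose groups do not overlap, so all 12 hold against library 3 by that choice.

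Of the 12 lower genes with the widest gap, 4 (Fmod, Ogn, Omp and Slc13a4) stand on the olfactory bulb or the meningeal list described further on. Lepr, the leptin receptor, stood at 6.13, 6.87 and 4.80 CPM in the unstressed libraries and at 1.41, 1.54 and 2.05 CPM in the stressed ones (chromosome 4, 101717404 to 101815352, plus strand). It fell by 1.82 ± 0.25 on the log2 scale, and library 3 lay with the other controls, well above the stressed range. Col5a2, a fibrillar collagen chain, fell from 8.26, 10.5 and 6.33 CPM to 3.26, 3.17 and 3.45 CPM. Ogn, a small proteoglycan of meningeal fibroblasts, was at 22.6, 24.6 and 6.16 CPM without stress and at 1.29, 0.942 and 2.01 CPM with it. Here library 3 lay between libraries 1 and 2 and the stressed group, and the difference was -2.13 against library 3 and -4.05 against the other two. Omp, the marker of olfactory sensory axons, was at 18.6, 89.7 and 5.93 CPM against 0.764, 0.257 and 0.580 CPM. The others were Fmod, Alx4, Fndc1, Ush1g, Slc13a4, A2m, Itih2 and Erdr1. Each of the 12 differed more from libraries 1 and 2 than from library 3, also those on neither list. The differences were -4.18 and -1.16 for Ush1g and -4.10 and -1.90 for Alx4, against libraries 1 and 2 and against library 3. All 12 hold against library 3, again by the way they were picked. Erdr1 fell by 1.39 ± 0.20 and by 1.20 against library 3, but no single position was found for it and its level is treated as uncertain.

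**Figure D2:**
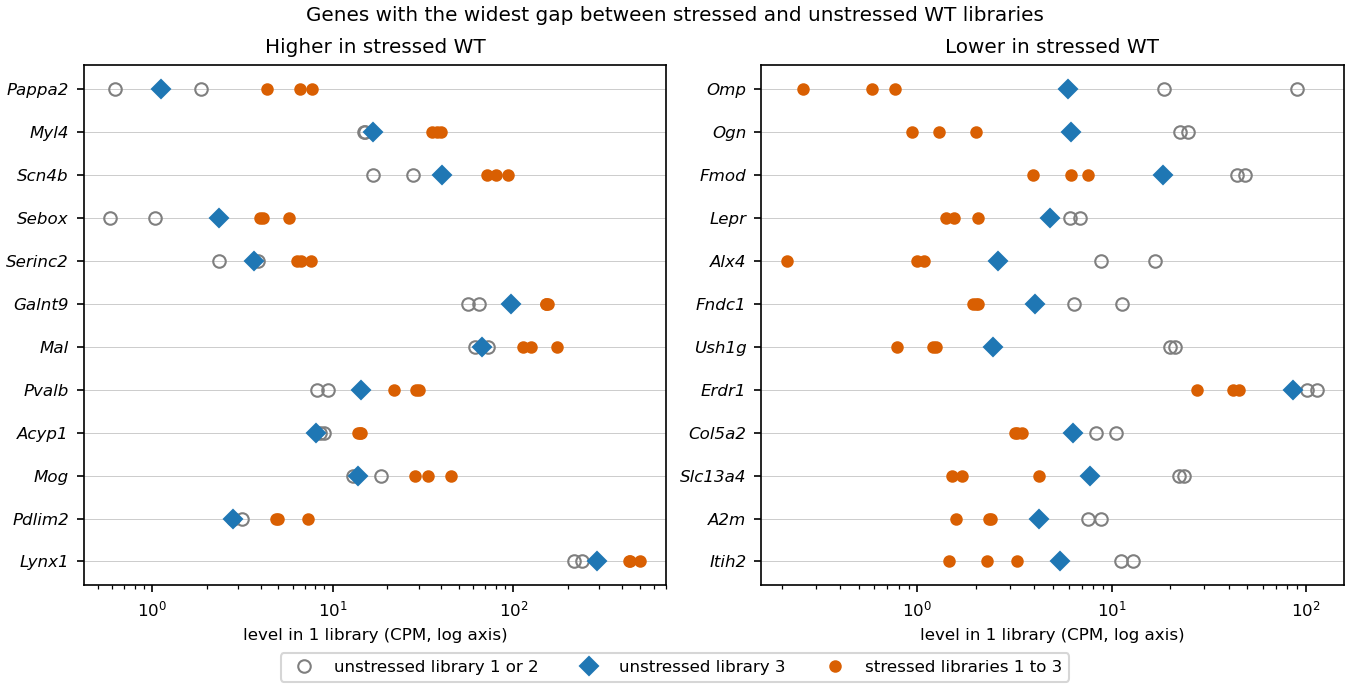
Level of 24 genes in each wild-type library (CPM, log axis), for the 12 higher and 12 lower genes with the widest gap between groups. Open circles are unstressed libraries 1 and 2, blue diamonds unstressed library 3 and orange circles the stressed libraries; library 3 lies between the 2 sets of circles for Ogn and Omp but beside libraries 1 and 2 for Myl4.

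The genes that do not hold against library 3 were 40 higher and 335 lower. The 335 lower ones had a median log2 fold change of -1.04, with -1.33 against libraries 1 and 2 and -0.18 against library 3. The 8 with the largest falls were Ms4a15, Cdhr1, Doc2g, Tbx21, Ppm1j, Nmb, Calb2 and Scgn, and each had 1 stressed library above library 3. Calb2, the calcium buffer calretinin, showed 307, 317 and 47.4 CPM in controls and 60.6, 24.3 and 12.4 CPM after stress. Tbx21, a T-box factor of mitral and tufted cells, showed 29.4, 24.7 and 2.29 CPM against 4.34, 1.03 and 0.375 CPM. In both genes stressed library 1 exceeded unstressed library 3. The largest rises that do not hold were those of Ramp3, Prss35, Hs3st4, Tmem74, Cyr61, Adcy1, Cdkl4 and Mpped1. Mpped1 stood at 158, 182 and 351 CPM in controls and at 347, 378 and 373 CPM after stress, so library 3 sat inside the stressed range. Adcy1, a calcium-stimulated adenylyl cyclase, showed 393, 529 and 835 CPM against 807, 982 and 1111 CPM.

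Of the 36 gene lists examined, cholesterol synthesis had the largest share of genes that rose. Of its 20 enzymes, 15 rose and none fell, beside 9.71% of all genes called higher, and all 15 hold against library 3. The list's median log2 fold change was 0.41, against 0.00 for all genes, and its median against library 3 was 0.35. In total 19 of the 20 had all 3 stressed libraries above library 3, compared with 32.1% of all genes. Hmgcs1, which makes the precursor of mevalonate, stood at 248, 255 and 312 CPM without stress and at 383, 472 and 420 CPM with it. Library 3 was the highest unstressed library and still below every stressed one; the log2 fold change was 0.65 ± 0.11, and 0.44 against library 3. Msmo1, a sterol demethylase, rose from 55.7, 52.6 and 63.7 CPM to 81.5, 104 and 97.6 CPM (0.72 ± 0.11, and 0.56 against library 3). Cyp51 rose by 0.51 ± 0.09 and Fdps, a farnesyl diphosphate synthase, by 0.55 ± 0.10.

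Genes that regulate or move cholesterol did not share this direction. Of 19 tested, 1 rose and 3 fell, beside 9.71% and 12.1% of all genes. Stard4, a carrier of sterol between membranes, rose by 0.58 ± 0.15. Abca1, which exports cholesterol, showed 72.1, 83.0 and 41.0 CPM without and 34.3, 28.6 and 30.0 CPM with stress. Its fall was -1.32 against libraries 1 and 2 and -0.41 against library 3. Srebf1 and Npc1 fell by 0.72 ± 0.18 and 0.39 ± 0.10, and all 4 genes hold against library 3. Srebf2, the factor that drives most sterol enzymes, was not called.

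The promoters of Hmgcs1 and Msmo1 are shown because most genes of this list rose, and sterol synthesis genes are known to be switched on through short runs of letters near their starts. Each run is the 250 bases before the RefSeq gene start (GRCm38.p6), written 5′ to 3′ on the gene's strand. Capitals mark CCAAT, which is bound by NF-Y, on either strand, and in Hmgcs1 also the sterol element CACCCCAC. Hmgcs1 (chr13:119690101-119690350, plus strand) holds 3 CCAAT and 1 sterol element, and Msmo1 (chr8:64733579-64733828, minus strand) holds 3 CCAAT. A check of the bases after each start against GENCODE transcripts found a match for Msmo1 and none for Hmgcs1.
Hmgcs1: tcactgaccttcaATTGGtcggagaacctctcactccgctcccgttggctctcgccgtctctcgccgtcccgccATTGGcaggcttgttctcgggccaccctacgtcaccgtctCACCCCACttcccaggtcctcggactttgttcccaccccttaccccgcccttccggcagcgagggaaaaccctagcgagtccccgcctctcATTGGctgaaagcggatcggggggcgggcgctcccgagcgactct
Msmo1: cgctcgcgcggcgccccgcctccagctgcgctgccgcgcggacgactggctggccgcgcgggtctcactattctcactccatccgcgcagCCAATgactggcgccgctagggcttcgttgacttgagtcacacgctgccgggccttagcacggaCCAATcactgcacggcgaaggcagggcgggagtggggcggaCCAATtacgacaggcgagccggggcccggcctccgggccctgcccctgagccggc
Of the 15 cholesterol enzymes with a promoter in the table, 14 held CCAAT and 2 held the sterol element, compared with 40.1% and 3.41% of 11461 tested genes. A match is a run of letters, and binding was not measured.

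Nuclear genes of the mitochondrial respiratory chain lay slightly higher after stress. Of 75 subunits, 16 rose and none fell, beside 9.71% of all genes, and all 16 hold against library 3. Called or not, 74 of the 75 had all 3 stressed libraries above library 3, compared with 32.1% of all genes tested. The median log2 fold change was 0.31, and it was 0.34 against library 3 and 0.30 against libraries 1 and 2. All 5 complexes shared the direction, with medians against library 3 of 0.34 in complex I, 0.29 in complex II, 0.36 in complex III, 0.37 in complex IV and 0.35 in the ATP synthase. Uqcrc1, a core subunit of complex III, was at 211, 208 and 219 CPM without stress and at 266, 254 and 256 CPM with it. Its values varied little within a group and did not overlap, and the rise was 0.28 ± 0.06. Atp5g1, a subunit of the ATP synthase ring, rose by 0.40 ± 0.09 and Ndufa9, of complex I, by 0.34 ± 0.08.

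Genes of the mitochondrial ribosome and the proteasome rose in part, and those of the cytosolic ribosome did not pass. Of all genes tested, 9.71% were called higher and 32.1% had all 3 stressed libraries above library 3. Of 74 mitochondrial ribosomal proteins 21 rose, none fell and all 21 hold, while 71 lay above library 3. Mrpl36 showed 14.4, 14.0 and 14.0 CPM without and 21.5, 19.2 and 17.8 CPM with stress. Of 31 proteasome subunits 16 rose and all of these hold, while none fell and 28 lay above library 3. Psmc5, an ATPase of the regulatory particle, rose by 0.38 ± 0.09, and Psmb5, a catalytic subunit, also by 0.38 ± 0.09. Of 76 cytosolic ribosomal proteins edgeR called none, with 1 at an unadjusted p under 0.05 and 1 called by DESeq2. Even so 68 of them lay above library 3, with a median of 0.25 against that library and 0.09 against libraries 1 and 2.

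Gene length went with the direction of change over the whole table. The span from start to end of the gene had a median of 17260 bp among called higher genes, 36400 bp among called lower genes and 24930 bp among all genes with a position. Genes were split by span into 5 equal bins. In the shortest bin, up to 8250 bp, 44.6% lay above library 3 and 20.0% below it. In the longest bin, over 78940 bp, 17.2% lay above and 43.4% below. Of the respiratory chain genes with a position 42 of 74 were in the shortest bin, as were 69 of 76 ribosomal protein genes and 41 of 74 mitochondrial ribosomal ones. Short minus long genes, as a median of centred log2 CPM, came to 0.03, -0.09 and -0.13 in the unstressed libraries and to 0.11, 0.00 and 0.08 in the stressed ones. The groups overlapped, since unstressed library 1 exceeded stressed library 2. The 3 unstressed libraries from mice lacking Cacna1g alone ran from -0.11 to 0.10. The part of this trend in the respiratory chain, ribosomal and proteasome results was not tested. Cholesterol enzymes had a median span of 17091 bp, with 3 of 20 in the shortest bin, 9 in the second shortest and 0 in the longest. Of all genes in the second shortest bin, 39.1% lay above library 3 and 25.2% below it. The part of the trend in the cholesterol result was not tested either.

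**Figure D3:**
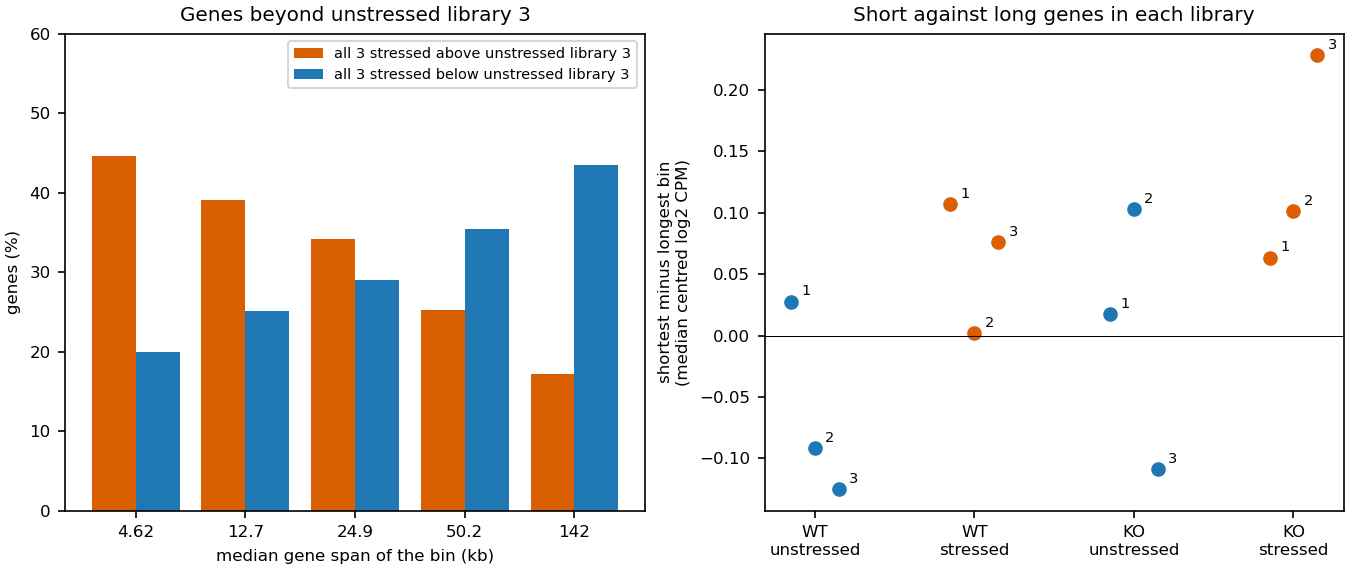
Left, percentage of genes (vertical axis) with all 3 stressed wild-type libraries above (orange) or below (blue) unstressed library 3, in 5 bins of gene span whose medians are on the horizontal axis in kb. Right, shortest minus longest bin in each library (median centred log2 CPM, 1 point a library, blue unstressed and orange stressed); the share above library 3 falls from 44.6% to 17.2%, while single libraries of 1 group span most of the range on the right.

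Myelin genes had the highest median log2 fold change of the 36 lists. Of 25 oligodendrocyte and myelin genes 12 rose and none fell, beside 9.71% of all genes called higher, and all 12 hold against library 3. The median log2 fold change was 0.74, with 0.69 against library 3 and 0.67 against libraries 1 and 2. The choice of control thus made little difference to the median. With an olfactory bulb score as covariate the median was 0.36. Mog, a surface protein of myelin, stood at 18.5, 12.9 and 13.8 CPM in the unstressed libraries and at 28.4, 33.5 and 45.4 CPM in the stressed ones. The groups were apart, library 3 lay between libraries 1 and 2, and the log2 fold change was 1.25 ± 0.25. Mal, a proteolipid of myelin, rose from 72.4, 61.4 and 67.5 CPM to 113, 125 and 174 CPM. Fa2h, which makes the hydroxylated fatty acids of myelin lipids, rose by 1.05 ± 0.26, and Tspan2 by 0.74 ± 0.18. Mbp, myelin basic protein, missed the threshold at 0.83 ± 0.33 (adjusted p = 0.0884 in edgeR), with 506, 446 and 425 CPM against 607, 593 and 1247 CPM. Stressed library 3 was the highest in each of these genes. The list summed to 2287, 2159 and 1984 CPM without stress and to 2695, 2887 and 4406 CPM with it. Without stressed library 3, 1 of the 25 was called and the median was 0.49.

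Of 12 genes of oligodendrocyte precursors, from which these cells arise, 3 fell and none rose, beside 12.1% of all genes called lower. Ptprz1, a receptor phosphatase, showed 226, 246 and 225 CPM without and 160.0, 168 and 177 CPM with stress. Library 3 was as high as library 1, and Ptprz1 fell by 0.47 ± 0.10. Lhfpl3 fell by 1.06 ± 0.23, but only by 0.31 against library 3, and Matn4 does not hold against it. Pdgfra and Gpr17, the defining genes of precursors and of cells committed to differentiate, were not called.

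Of 43 immediate early genes, 9 rose and 2 fell, beside 9.71% and 12.1% of all genes, and 7 of the 9 (all but Dusp1 and Homer1) and both of the falls hold against library 3. The median log2 fold change was 0.28, falling to 0.17 against library 3. There 18 genes lay above and 6 below, compared with 32.1% and 30.5% of all genes. For the 18 transcription factors the median against library 3 was 0.01, with 9 differences positive. Of the 43 genes, 21 are in the shortest bin of gene spans, and the part of the length trend here was not tested. Among the transcription factors, Klf10, a zinc finger factor induced by growth factors and calcium (chromosome 15, 38291463 to 38300706, minus strand), stood at 18.8, 21.8 and 24.5 CPM without stress. In the stressed libraries it reached 39.2, 39.5 and 35.7 CPM, with no overlap and library 3 the highest control. Its log2 fold change was 0.81 ± 0.11 (adjusted p = 0.0103 in edgeR), and 0.63 against library 3. Junb, a partner of Fos in the AP-1 complex, rose from 21.6, 22.9 and 27.7 CPM to 36.8, 51.0 and 48.5 CPM. Nr4a1, a nuclear receptor induced by firing, rose by 0.57 ± 0.16. Fos itself did not pass, with 9.53, 10.8 and 11.5 CPM against 18.7, 22.2 and 21.2 CPM and an adjusted p of 0.0625 in edgeR, though its groups did not overlap. Jun fell by 0.30 ± 0.08.

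Among the synaptic effectors, Arc, which controls glutamate receptor uptake, showed 28.0, 22.8 and 18.6 CPM without stress. Stressed libraries 2 and 3 stood at 82.0 and 83.6 CPM and stressed library 1 at 33.1 CPM, close to the controls. Arc rose by 1.52 ± 0.36, and by 1.71 against library 3, which was its lowest library. Rheb, a small GTPase that activates mTOR, rose by 0.43 ± 0.09. Homer1, a scaffold of metabotropic glutamate receptors, was called but does not hold, since stressed library 3 at 212 CPM lay below unstressed library 3 at 223 CPM. Of the feedback regulators, Ier5 rose from 57.5, 58.6 and 63.0 CPM to 92.9, 88.0 and 88.5 CPM, a change of 0.59 ± 0.12. Gadd45b rose by 0.48 ± 0.15 and Sik1, a kinase that restrains CREB targets, fell by 0.89 ± 0.22, with a difference of -0.27 against library 3. Of 31 promoters of the list, 22 held the letters CGTCA of the cyclic AMP response element on either strand, compared with 29.2% of tested genes. The full TGACGTCA, which contains it, was in 4, compared with 2.98% of tested genes. Neither was in the 250 bases before the start of Ier5.

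Of 24 genes of the circadian clock, 5 rose and 2 fell, beside 9.71% and 12.1% of all genes, and all 7 hold against library 3. The risers were Dbp and Tef, which are output factors binding D-box sequences, Ciart and Nr1d2, which are repressors, and Per2, a core repressor. Dbp was at 51.2, 58.9 and 45.8 CPM without stress and at 74.4, 76.5 and 87.4 CPM with it. Library 3 was the lowest control, so the rise of 0.61 ± 0.11 was 0.79 against it. Ciart rose from 7.09, 7.39 and 8.35 CPM to 10.8, 13.6 and 14.4 CPM (0.77 ± 0.15, and 0.62 against library 3). Tef rose by 0.30 ± 0.06 and Nr1d2 by 0.26 ± 0.07. The 2 that fell were Arntl, the activator BMAL1, from 45.2, 43.9 and 48.8 CPM to 41.1, 36.4 and 32.1 CPM, and Cry1. The hour at which each brain was taken is not labelled. Dbp overlaps Sphk2 by 737 bp on the other strand, and whether reads were counted by strand is not given in the sources used here.

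The promoter of Ciart is shown because it carries the letters bound by the clock activators 3 times over. Capitals mark the E-box CACGTG, and the run is the 250 bases before the RefSeq start (GRCm38.p6, chr3:95882229-95882478, minus strand).
Ciart: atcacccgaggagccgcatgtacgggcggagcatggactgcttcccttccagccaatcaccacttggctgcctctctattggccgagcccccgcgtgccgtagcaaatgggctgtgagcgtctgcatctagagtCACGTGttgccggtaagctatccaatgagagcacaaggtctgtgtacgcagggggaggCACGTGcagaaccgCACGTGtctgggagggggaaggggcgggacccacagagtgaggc
The E-box was found in 5 of 20 clock promoters and in 9.56% of those of tested genes. The promoter run of Dbp (chr7:45704997-45705246, plus strand) did not hold it. For that gene the bases after the RefSeq start matched no GENCODE transcript, and the GENCODE start at 45705088 lies inside the run. The run therefore does not cover the 250 bases before that start.

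Of 27 glucocorticoid-responsive genes tested, 5 rose and 1 fell, beside 9.71% and 12.1% of all genes. The median against library 3 was 0.18, and 13 genes lay above that library, compared with 32.1% of all genes. Tsc22d3, the glucocorticoid-induced leucine zipper, rose from 33.5, 32.2 and 29.6 CPM to 44.8, 51.9 and 57.9 CPM. Library 3 was its lowest control, and the rise of 0.70 ± 0.11 was 0.79 against it. Sgk1, a kinase induced by corticosteroids, rose from 31.0, 35.4 and 46.6 CPM to 53.4, 57.2 and 66.9 CPM, a change of 0.65 ± 0.13 and of 0.34 against library 3. Klf9 rose by 0.36 ± 0.08 and Zbtb16 by 0.57 ± 0.16. Dusp1 was called higher but stressed library 1 lay below unstressed library 3, while the other 4 rises and the fall hold. Angptl4, which inhibits lipoprotein lipase, fell by 1.01 ± 0.27. Fkbp5, a widely used target of the receptor, stood at 40.5, 36.2 and 36.2 CPM against 41.0, 35.1 and 33.7 CPM, with a log2 fold change of -0.04 ± 0.08. Nr3c1, the receptor itself, was not called.

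Of 25 genes of protein folding in the endoplasmic reticulum, 6 rose and 2 fell, beside 9.71% and 12.1% of all genes, and all 8 hold against library 3. Xbp1, the transcription factor of the unfolded protein response, stood at 68.7, 68.5 and 71.1 CPM without and at 93.3, 93.0 and 89.2 CPM with stress. The spread within a group was small and the rise was 0.40 ± 0.07. Sdf2l1, a co-chaperone, rose from 7.30, 7.02 and 7.19 CPM to 11.9, 10.4 and 9.59 CPM, a log2 fold change of 0.56 ± 0.11. Manf and Hspa5, the chaperone BiP, rose by 0.37 ± 0.10 and 0.28 ± 0.09. Creb3l1 fell by 0.91 ± 0.19 and Ern1, the sensor that splices Xbp1, by 0.44 ± 0.13. Sdf2l1's promoter is shown for its repeats of 2 short runs that are parts of the response element of this pathway. Capitals mark CCAAT and CCACG on either strand (GRCm38.p6, chr16:17132384-17132633, minus strand). The 2 runs were searched for separately, without regard to order or spacing, so the capitals do not mark a whole element.
Sdf2l1: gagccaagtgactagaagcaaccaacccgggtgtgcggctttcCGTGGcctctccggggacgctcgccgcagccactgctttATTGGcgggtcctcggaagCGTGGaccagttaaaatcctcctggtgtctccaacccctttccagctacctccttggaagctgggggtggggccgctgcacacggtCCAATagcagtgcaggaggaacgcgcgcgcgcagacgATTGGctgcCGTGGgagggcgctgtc
CCAAT was in 19 and CCACG in 16 of 21 promoters of the list, compared with 40.1% and 45.2% of tested genes. The promoter run of Xbp1 held neither. Of 27 genes of the integrated stress response, which slows translation and raises ATF4, 4 rose and 1 fell, beside 9.71% and 12.1% of all genes, and all 5 hold against library 3. Atf4 went from 118, 113 and 108 CPM to 132, 142 and 139 CPM (0.28 ± 0.07), and Asns, asparagine synthetase, rose by 0.45 ± 0.11 but by 0.17 against library 3. Slc7a11, the cystine transporter, fell by 0.65 ± 0.20, with stressed library 3 and unstressed library 3 almost equal at 47.9 and 48.0 CPM. Among 18 heat shock genes 2 rose and 2 fell, shares close to those of all genes. Dnaja1 and Chordc1 rose, while Bag3 fell by 0.90 ± 0.18 and Hspa1a, whose level is uncertain because of a near-identical copy, by 0.48 ± 0.14. All 4 hold against library 3, but for Hspa1a the groups overlapped. Its level was 15.8 CPM in stressed library 1 and 15.5 CPM in unstressed library 1.

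Parvalbumin interneurons fire fast and inhibit projection neurons near the soma. Of 15 of their genes 5 rose and 2 fell, beside 9.71% and 12.1% of all genes, and the 5 risers all hold against library 3. Pvalb stood at 8.16, 9.41 and 14.3 CPM without stress and at 21.9, 28.8 and 30.1 CPM with it. Library 3 was the highest control and still below the stressed range; the log2 fold change was 1.34 ± 0.22, and 0.90 against library 3. Scn4b, a sodium channel subunit of fast-firing cells, stood at 16.6, 27.8 and 40.3 CPM without stress and at 71.7, 79.7 and 93.1 CPM with it. Its rise of 1.53 ± 0.32 was 1.00 against library 3 and 1.91 against libraries 1 and 2. Vamp1, Kcns3 and Syt2 rose by 0.64 ± 0.11, 0.81 ± 0.18 and 1.18 ± 0.32. Kcnc1, the Kv3.1 channel, fell by 0.30 ± 0.10 and holds, but with a difference of -0.08 against library 3, and Tacr1 was called lower but does not hold. The list's median was 0.64 against libraries 1 and 2 and 0.13 against library 3.

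Of 25 genes of other interneuron classes 13 fell and 2 rose, beside 12.1% and 9.71% of all genes, but 6 of the 13 hold against library 3. Neurons of the olfactory bulb express several of them, and 5 of the 13 (Calb2, Dlx2, Dlx5, Reln and Sp8) also stand on the olfactory bulb list. Reln, a secreted protein of cortical and bulbar neurons, showed 230, 288 and 115 CPM without and 85.3, 68.1 and 60.2 CPM with stress. It fell by 1.57 ± 0.25, and by 0.71 against library 3. Htr3a, the ionotropic serotonin receptor, fell from 10.1, 9.60 and 8.05 CPM to 5.99, 5.95 and 5.22 CPM, with library 3 among the controls and a fall of 0.69 ± 0.13. Sst, somatostatin, was among the 2 that rose, from 60.6, 72.9 and 153 CPM to 169, 196 and 204 CPM. Library 3 lay much nearer to the stressed group than to its own, and the rise of 0.99 ± 0.26 was 0.30 against it.

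Projection neurons of the upper and deep cortical layers express different genes. Of 12 upper-layer genes 5 fell and none rose, beside 12.1% of all genes called lower. Called or not, 7 of the 12 lay below library 3, compared with 30.5% of all genes. The median was -0.48 against that library and -0.37 against libraries 1 and 2. Otof, otoferlin, showed 19.8, 26.6 and 38.4 CPM without and 14.5, 13.5 and 16.8 CPM with stress. Library 3 was the highest, and Otof fell by 0.92 ± 0.20, with less of a difference against libraries 1 and 2 (-0.63) than against library 3. Cux2, a homeobox factor of these layers, fell from 84.3, 100.4 and 102 CPM to 67.4, 58.8 and 60.3 CPM, and Wfs1 fell by 0.43 ± 0.12, by 0.61 against library 3. Mdga1 and Cux1 were called but do not hold. Of 20 deep-layer genes 5 rose and 1 fell, beside 9.71% and 12.1% of all genes, and 3 of the rises hold. Fezf2, which specifies subcerebral projection neurons, was at 14.9, 23.4 and 44.5 CPM against 55.5, 61.3 and 64.2 CPM, a rise of 1.13 ± 0.28 and of 0.44 against library 3. The deep-layer median was 0.60 against libraries 1 and 2 and 0.11 against library 3. Crym was at 30.1, 35.6 and 81.6 CPM against 94.1, 94.0 and 87.4 CPM.

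**Figure D4:**
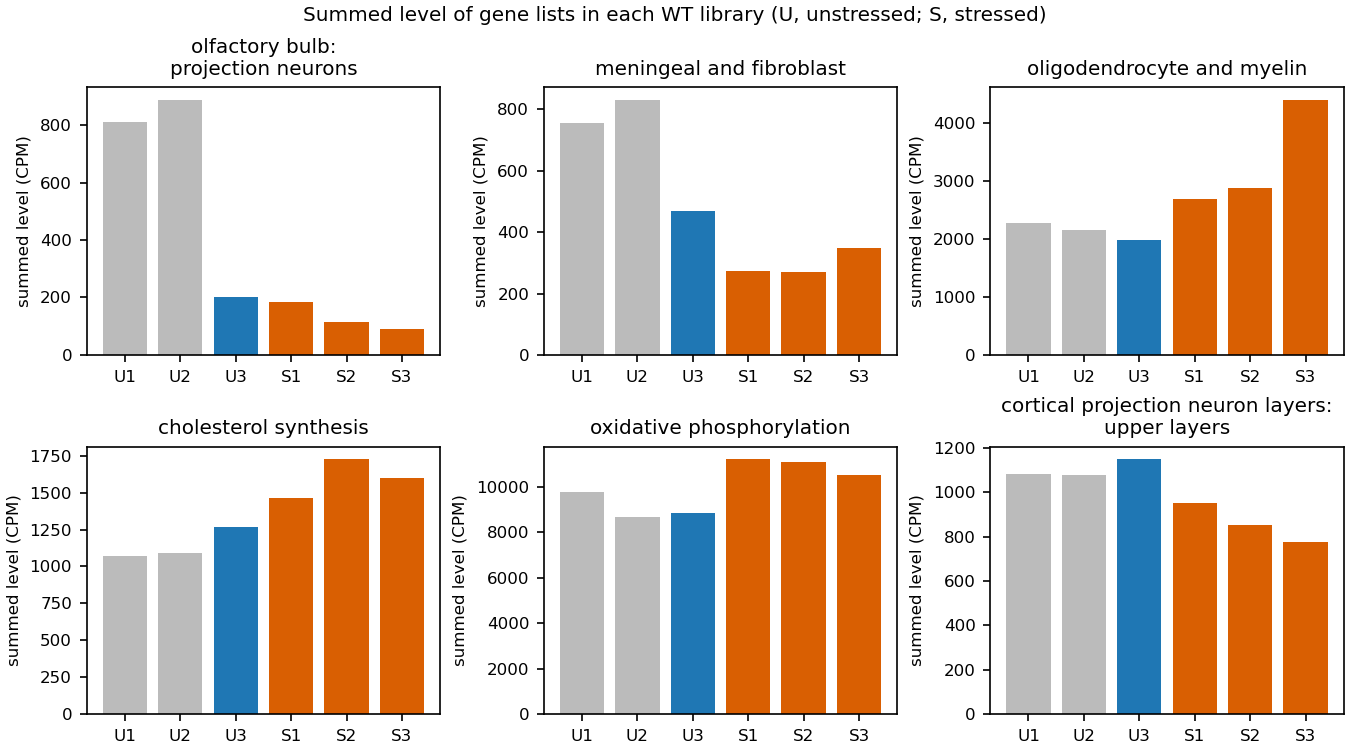
Summed level of 6 gene lists in each wild-type library (CPM), with unstressed libraries 1 and 2 in grey, unstressed library 3 in blue and stressed libraries in orange. Of the olfactory bulb list only the 9 genes of projection neurons are drawn, with 812 and 888 CPM in the grey bars and 201 CPM in library 3. For myelin and upper layers library 3 lies with the grey bars and apart from the stressed ones.

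Receptors, channels and release proteins gave smaller and mixed results, to be read beside the 9.71% of all genes called higher and the 12.1% called lower. Of 27 vesicle release genes 6 rose and 1 fell, and all 7 hold against library 3. Snap25, a SNARE protein, rose from 2429, 2248 and 2613 CPM to 3335, 3605 and 3184 CPM (0.47 ± 0.10, and 0.37 against library 3). Of 39 glutamate receptor and scaffold genes 1 rose and 6 fell, and 6 of these 7 hold against library 3. Called or not, 22 lay below that library and 3 above, compared with 30.5% and 32.1% of all genes. In length, 25 of the 39 are in the longest bin of gene spans. Grin2d, an NMDA receptor subunit, fell from 20.0, 33.4 and 16.8 CPM to 10.9, 9.21 and 11.2 CPM, a change of -1.17 ± 0.20 and of -0.69 against library 3. Of 23 genes of the GABA synapse 7 fell and 1 rose, and 5 of the falls and the rise hold. Gad1, which makes GABA, showed 1356, 1037 and 471 CPM without and 518, 402 and 315 CPM with stress and does not hold. Slc6a11, a GABA transporter, fell by 1.76 against libraries 1 and 2 and by 0.26 against library 3. Of 53 potassium channel genes 9 rose and 5 fell, and the 9 rises and 3 of the falls hold; the share that fell was below that of all genes. Kcnip3 rose by 0.65 ± 0.11 and Kcnh2 fell by 0.83 ± 0.17, with 0.35 and -0.30 against library 3. Among 12 sodium and HCN channel genes 3 rose and 3 fell, and all 6 hold against library 3. The auxiliary subunits Scn2b and Scn4b were among those that rose, and Hcn3, Hcn4 and Scn3a fell; reads of Scn3a are shared with a similar sequence.

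Of 21 calcium channel genes 5 fell and none rose, beside 12.1% and 9.71% of all genes, and 4 of the 5 hold against library 3 (all but Cacng5). In length, 13 of the 21 are in the longest bin of gene spans. Cacna1h, which encodes the T-type channel Cav3.2, stood at 114, 106 and 106 CPM without stress and at 83.2, 59.4 and 58.5 CPM with it. The groups were apart, and the fall was 0.70 ± 0.14, and 0.68 against library 3. Cacna1c, the L-type channel Cav1.2, fell from 144, 126 and 107 CPM to 87.3, 73.1 and 67.7 CPM. Cacna1g, the gene deleted in the other mice of the series, was at 133, 144 and 135 CPM without and at 128, 110 and 109 CPM with stress. It missed the threshold at -0.25 ± 0.09 (adjusted p = 0.0639 in edgeR), and all 3 stressed libraries lay below library 3.

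Stress peptides and their receptors gave 3 rises and 4 falls among 29 genes, shares close to the 9.71% and 12.1% of all genes. Of these, the rises and 1 fall, that of Trh, hold against library 3. Trh, thyrotropin-releasing hormone, which bulb neurons also make, fell from 37.1, 49.4 and 6.39 CPM to 4.50, 2.57 and 1.98 CPM, so that most of the fall of 3.37 ± 0.67 came from libraries 1 and 2. Mc4r, a melanocortin receptor, was at 0.723, 1.04 and 2.62 CPM against 4.10, 3.42 and 3.69 CPM, and it holds with a difference of 0.50 against library 3. Sstr2, a somatostatin receptor, rose by 1.15 ± 0.31. Crh, the corticotropin-releasing hormone, was called lower but does not hold, with 14.4, 13.3 and 7.25 CPM against 7.64, 6.68 and 6.59 CPM.

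Among glia and vessels, astrocyte genes gave 5 falls and no rise in 20, beside 12.1% and 9.71% of all genes, and all 5 hold against library 3. The list as a whole did not keep that direction, with a median of 0.03 against library 3, where 11 of the 20 differences were positive, and of -0.35 against libraries 1 and 2. Aqp4, the water channel of astrocyte endfeet, showed 193, 203 and 123 CPM against 94.9, 93.9 and 109 CPM. Of these 5, Sox9, a transcription factor of astrocytes, differed most from library 3, with 24.4, 32.4 and 34.5 CPM against 20.4, 20.7 and 24.2 CPM, a larger difference against library 3 (-0.67) than against the other two (-0.37). Gfap fell by 1.61 against libraries 1 and 2 and by 0.47 against library 3. Of 20 microglial genes none rose and 1, Sall1, fell without holding, and of 29 endothelial and mural genes 1 rose and 6 fell, beside 9.71% and 12.1% of all genes, with 5 of these 7 holding. Kdr, the VEGF receptor of endothelium, fell from 16.8, 20.7 and 16.7 CPM to 9.97, 11.0 and 13.6 CPM, and Cldn5, a tight junction protein, fell by 0.63 ± 0.15. Both hold, by -0.55 and -0.48 against library 3. Egfl7, another endothelial gene and the 1 that rose, did so by 0.37 ± 0.09 and holds, by 0.24. Over the 29 genes, 7 lay below library 3 and 3 above, compared with 30.5% and 32.1% of all genes. The list summed to 689, 776 and 599 CPM without stress and to 431, 460 and 680 CPM with it.

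Of 25 meningeal and fibroblast genes 21 fell and none rose, beside 12.1% of all genes called lower, and 19 of the 21 hold. Called or not, 22 lay below library 3, compared with 30.5% of all genes. The median was -2.20 against libraries 1 and 2 and -0.79 against library 3. Col3a1, a fibrillar collagen, showed 8.16, 8.59 and 3.28 CPM without and 1.04, 0.813 and 2.18 CPM with stress. Slc47a1, a transporter of the arachnoid, fell from 4.03, 7.36 and 2.78 CPM to 0.322, 0.300 and 0.546 CPM, with -2.65 against library 3. Of 43 olfactory bulb genes 31 fell and none rose, beside the same 12.1%, and 13 of the 31 hold. Called or not, 16 of the 43 lay below library 3 and 3 above, compared with 30.5% and 32.1% of all genes. The median was -2.13 against libraries 1 and 2 and -0.49 against library 3. Th, the dopamine synthesis enzyme of bulb interneurons, showed 94.2, 103 and 13.6 CPM without and 13.2, 6.77 and 4.26 CPM with stress. Both lists were high in unstressed libraries 1 and 2, where many other lists also stood apart from library 3. With an olfactory bulb score as covariate, the median log2 fold change went from 0.74 to 0.36 for myelin genes. It went from 0.41 to 0.26 for cholesterol synthesis and from -0.69 to -0.03 for other interneuron classes. For the respiratory chain it went up, from 0.31 to 0.43. The cause of these shifts, and the part of the meningeal genes in the other results, was not tested.

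**Figure D5:**
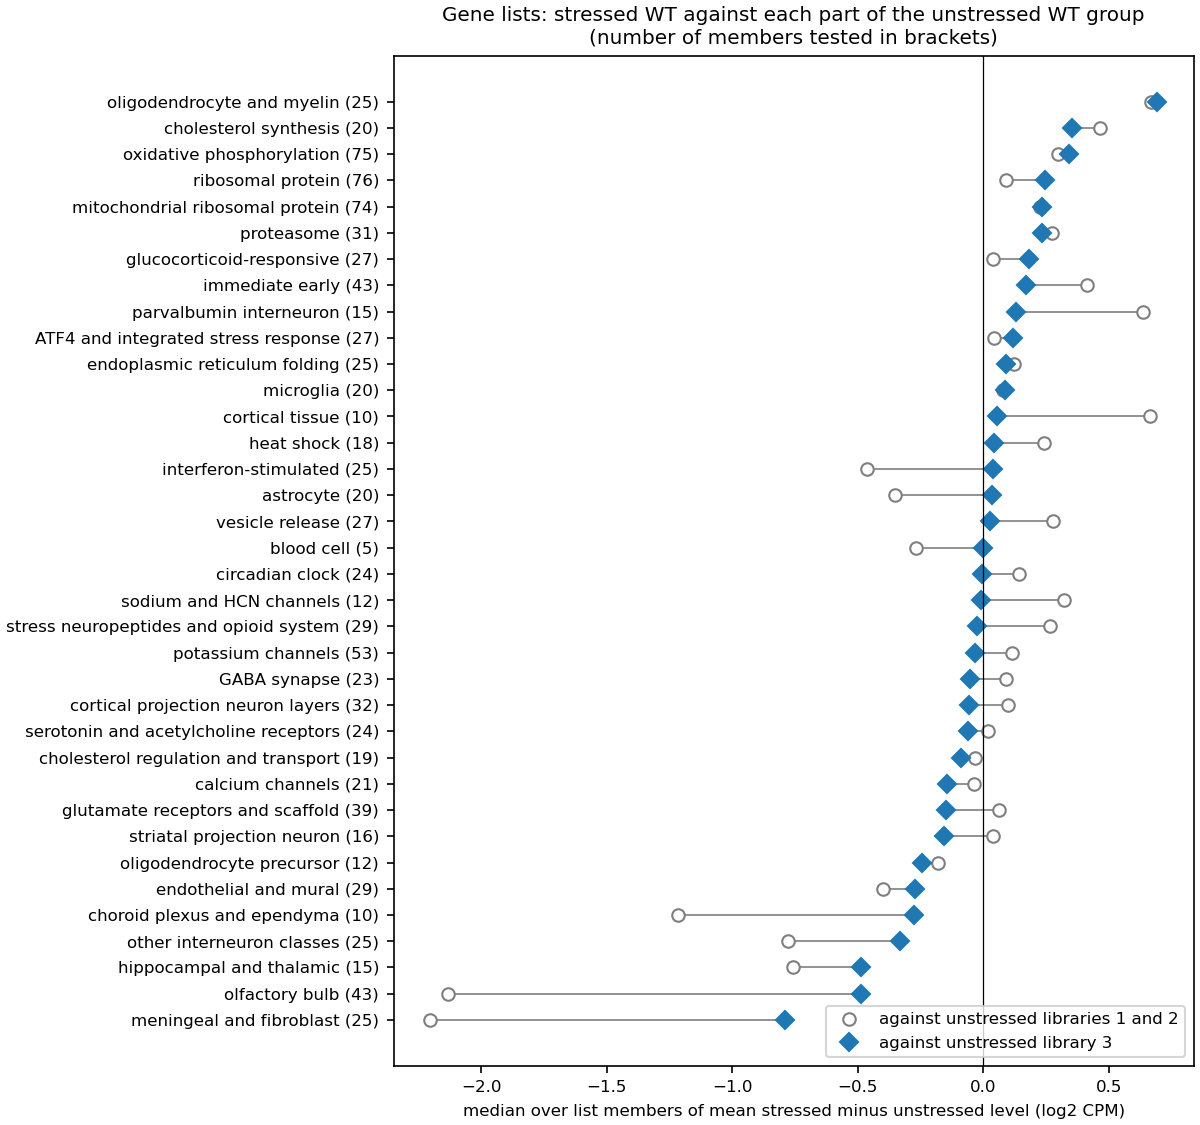
Median over the members of each gene list of the mean stressed minus the unstressed level (log2 CPM, horizontal axis), against unstressed library 3 (blue diamonds) and against unstressed libraries 1 and 2 (open circles), with the number of members tested in brackets. The 2 marks coincide for myelin genes (0.69 and 0.67) and lie far apart for meningeal genes (-0.79 and -2.20).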

How the data were processed

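Total RNA of medial prefrontal cortex was made into strand-keeping libraries, per the labels' protocols. What the authors deposited is a table of estimated counts, not normalised, with gene symbols as names. The genome build mm10 and the tools DESeq2 1.36.0, RSEM 1.3.1, STAR 2.7.9a and Trim Galore 0.6.6 are named in the submitters' processing notes. How reads were assigned by strand, and to which annotation, is not given in the sources used here. Estimated counts were rounded, filtered with filterByExpr (minimum count 10, minimum total 15; 4800 genes had no count and 4412 too few) and scaled by TMM. The same factors enter the CPM values; their logarithm has a prior count of 2. A count of 0 allows up to 3 counts, 0.092 to 0.128 CPM in these libraries, which covers counting error only.

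Stressed minus unstressed wild type was tested with edgeR's quasi-likelihood method, in a model of 4 group means that held all 12 libraries and had 8 residual degrees of freedom. Two-sided p-values were adjusted over 15199 genes (Benjamini-Hochberg), with a threshold of 0.05; each ± is a standard error. No permutation test was run, as with 3 libraries a group the smallest p it can reach is 0.1. The script was tested on simulated data. Versions were DESeq2 1.42.0, sva 3.50.0, edgeR 4.0.16 and limma 3.58.1 under R 4.3.3. Replicate numbers did not pair the libraries, and no pair of replicates agreed within counting noise (chi-square per degree of freedom between 4.87 and 68.6).

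The comparison, the 36 gene lists and the naming rule were chosen with earlier results of these data known. Named were the 12 genes per direction with the widest gap between groups, the 8 per direction with the largest change that do not hold against library 3 (in both cases at a mean log2 CPM of 1 or more), and of 30 lists the 4 members with the smallest p and every called member where 6 or fewer were called. Other members were named after their values were seen, and a few genes are not reported here. Genes with decimals in at least 6 libraries (798 of those tested) are uncertain, as are genes overlapping another tested gene, among them Cyp51, Dbp, Grin2d, Junb, Manf, Ogn, Omp, Syt2, Ush1g and Vamp1. Positions are from GENCODE for mm10 and were found for 14594 of the genes tested; promoters are from RefSeq, and 11461 tested genes matched.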

Additional observations from a re-analysis of the deposited data

How the results depend on the processing

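The 3322 genes called were 3289 with DESeq2 size factors, 3026 without a filter, 4030 with DESeq2's own test and 7212 with voom quality weights, where the genes that hold against library 3 were 4692 instead of 2947. With the 6 wild-type libraries alone, 1 gene was called, and it holds. The call count was 0, and so was the count that holds, with 1 surrogate variable (1849 genes at an unadjusted p under 0.05), with an olfactory bulb score as covariate (1854) and against library 3 alone (1932). Leaving out 1 wild-type library gave between 0 and 5635 calls (967 without unstressed library 1, 2010 without stressed library 1 and 1660 without stressed library 3) and between 0 and 2002 that hold. Genes whose groups did not overlap numbered 5560, and between 5850 and 9777 without 1 library, the most without unstressed library 3. With replicate number as a block 3007 genes were called; correlations of deviations between same-numbered libraries were 0.30, -0.25 and 0.05, so the numbers do not pair the libraries.

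Of 161 named genes, 19 changed sign with the surrogate variable. Their log2 fold changes became 0.45 for Ms4a15, 0.048 for Cdhr1, 0.20 for Doc2g, 0.79 for Tbx21, 0.79 for Nmb, 0.30 for Calb2, 0.62 for Scgn, 0.40 for Cacng5, 0.014 for Th, 0.061 for Gad1, 0.014 for Slc6a11, 0.018 for Gfap, 0.10 for Agt and 0.00089 for Sall1. Those of Tmem74, Adcy1, Cdkl4, Mpped1 and Slc17a7 became -0.069, -0.059, -0.075, -0.037 and -0.017. With the olfactory score as covariate 8 changed sign, to 0.23 for Ms4a15, 0.012 for Doc2g, 0.52 for Tbx21, 0.49 for Nmb, 0.14 for Calb2, 0.49 for Scgn, 0.24 for Cacng5 and -0.0023 for Adcy1. None of the 161 changed sign under the other 13 alternatives. The 161 are the genes taken by the naming rule, and genes named outside it are not covered by these counts. The cause was not tested.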

Other observations

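Further gene lists are given beside the 9.71% of all genes called higher and the 12.1% called lower. Of 10 choroid plexus and ependyma genes tested 5 fell and none rose, among them Aqp1, Kl, Sostdc1, Clic6 and Kcnj13, and all 5 hold against library 3. Of 15 hippocampal and thalamic genes 7 fell and 1 rose, and 5 of the 7 and the rise hold. Over the whole list of 16 genes the sum was 651 and 719 CPM in unstressed libraries 1 and 2. It was 359 CPM in library 3 and between 246 and 301 CPM after stress. Striatal genes, the marker of another neighbouring tissue, summed to between 576 and 656 CPM in all 6 libraries, and 1 of 16 fell, which holds; its share was below that of all genes. Of 25 interferon-stimulated genes 2, Gbp2 and Tap1, fell and none rose, a share below that of all genes. Both hold against library 3, but the median of the list was 0.04 against that library and -0.46 against libraries 1 and 2. Of 24 serotonin and acetylcholine receptor genes 5 fell and none rose, and 2 of them hold against library 3.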
